A study of Mus musculus with 42 samples.

Results

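Glycolysis and hypoxia response genes were followed in 42 MC38 tumors as a list of 37 genes named for their roles and chosen with earlier results of these data known. The list held 17 genes of glucose use (transporters, glycolytic enzymes and regulators of glycolytic flux) and 20 genes of the cellular response to low oxygen. All 37 were found among the 26811 genes of the count table, and all 37 passed the filter on low counts that left 16932 genes for testing. MC38 is a mouse colon carcinoma line, and each tumor grew from 500000 cells placed under the skin of a female F1 mouse of the cross CC075/UncJ x C57BL/6J, aged 8 to 12 weeks.

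The tumors fell into 5 groups: 5 labelled isotype control, 6 aPD1, 9 aPD1 + aGMCSF, 11 aPD1 + aIL2RB and 11 aPD1 + aGMCSF + aIL2RB. Here aPD1 is an antibody that blocks the checkpoint receptor PD-1, aGMCSF blocks the cytokine GM-CSF and aIL2RB blocks a receptor chain shared by IL-2 and IL-15. From engraftment on, every 3rd day until the tumor measured 75 to 110 mm3, mice received aGMCSF at 100 µg, aIL2RB at 200 µg or isotype antibodies matched to these in kind and dose. A single dose of 200 µg of aPD1, or of its isotype in the isotype control group, followed, and tumors were taken 48 hours later. All hosts were thus of 1 cross, all tumors of 1 cell line and all of similar size, and tumor RNA came from every cell present. The comparisons ask how a dose of aPD1 moved the genes and what blockade of GM-CSF, of IL2RB or of both did to that.

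Glycolysis splits glucose into pyruvate, which lactate dehydrogenase turns into lactate when oxygen is short or when cells favour fast glucose use, as tumor cells often do. Low oxygen slows the prolyl hydroxylases that mark hypoxia-inducible factor (HIF) for destruction, so that HIF accumulates and raises genes for glucose uptake, glycolysis, vessel growth, collagen processing and turnover of mitochondria. In tumors such genes mark poorly perfused regions, and activated immune cells raise many of the glycolytic ones too.

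HIF binds DNA at a core of CGTG preceded by A or G. The letters ACGTG and GCGTG were searched on both strands in windows running from 250 bases before to 50 bases after each annotated start (RefSeq, GRCm38.p6). A window was at hand for 34 of the 37 genes, 1 of them, Ero1l, through another symbol, and none was for Bnip3l, Ndrg1 and Plod2. The first window held either motif in 27 of the 34 (79.4%), against 43.8% of the first windows of 27025 genes. ACGTG alone stood in 18 of them (52.9%), against 19.7% of all genes, and at least 3 matches in 10 (29.4%), against 9.11%. The list was chosen for roles in glucose use and the response to low oxygen, so more matches were likely from the start. The windows compared were not matched for base composition. The palindrome CACGTG holds ACGTG on both strands and counts as 2 matches. Those printed here belong to genes on which the results turn, with matches on either strand in capitals. Ldha (chr7:46845554-46845853, plus strand) had 7 matches, Ankrd37 (chr8:45999801-46000100, minus) 4, Gapdh (chr6:125165724-125166023, minus) 3, Ddit4 (chr10:59951721-59952020, minus) 2, Egln3 (chr12:54203825-54204124, minus) 1 and Tpi1 (chr6:124814109-124814408, minus) 0.
Ldha: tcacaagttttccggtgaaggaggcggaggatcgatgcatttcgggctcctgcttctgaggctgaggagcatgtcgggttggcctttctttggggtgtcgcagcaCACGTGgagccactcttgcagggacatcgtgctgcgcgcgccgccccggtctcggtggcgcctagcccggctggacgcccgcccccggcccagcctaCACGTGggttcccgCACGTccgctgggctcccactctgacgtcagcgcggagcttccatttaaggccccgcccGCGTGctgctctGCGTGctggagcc
Ankrd37: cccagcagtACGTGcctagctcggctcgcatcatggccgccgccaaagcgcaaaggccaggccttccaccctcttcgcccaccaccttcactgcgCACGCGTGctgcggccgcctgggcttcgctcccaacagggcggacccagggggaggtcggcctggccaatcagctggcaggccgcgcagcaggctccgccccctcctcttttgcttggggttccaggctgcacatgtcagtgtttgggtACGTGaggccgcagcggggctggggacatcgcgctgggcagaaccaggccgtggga
Gapdh: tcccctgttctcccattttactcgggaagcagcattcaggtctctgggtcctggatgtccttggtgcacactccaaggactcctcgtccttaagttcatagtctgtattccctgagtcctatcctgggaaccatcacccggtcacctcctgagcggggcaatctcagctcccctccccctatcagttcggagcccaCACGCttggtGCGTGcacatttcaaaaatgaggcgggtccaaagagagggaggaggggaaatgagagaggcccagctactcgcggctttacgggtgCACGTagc
Ddit4: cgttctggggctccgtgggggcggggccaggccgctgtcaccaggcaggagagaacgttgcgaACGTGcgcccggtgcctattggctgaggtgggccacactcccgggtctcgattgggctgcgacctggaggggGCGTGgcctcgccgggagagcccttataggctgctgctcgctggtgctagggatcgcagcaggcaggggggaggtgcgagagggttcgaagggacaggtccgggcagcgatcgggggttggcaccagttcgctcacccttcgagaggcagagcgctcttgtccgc
Egln3: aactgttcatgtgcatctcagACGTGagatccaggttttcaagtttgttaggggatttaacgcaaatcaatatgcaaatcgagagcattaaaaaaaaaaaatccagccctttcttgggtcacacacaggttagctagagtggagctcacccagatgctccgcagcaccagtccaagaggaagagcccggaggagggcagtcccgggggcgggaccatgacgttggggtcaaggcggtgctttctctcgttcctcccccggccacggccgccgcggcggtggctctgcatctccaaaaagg
Tpi1: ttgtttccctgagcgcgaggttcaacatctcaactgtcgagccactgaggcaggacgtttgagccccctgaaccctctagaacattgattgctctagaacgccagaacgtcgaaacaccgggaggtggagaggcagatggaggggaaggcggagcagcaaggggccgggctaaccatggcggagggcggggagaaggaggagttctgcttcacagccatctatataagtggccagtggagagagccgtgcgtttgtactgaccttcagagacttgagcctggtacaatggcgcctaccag

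Libraries held 7155486 to 24101674 counts (median 20215383), and the 37 genes together took 1.00 to 1.66% of them. The shallowest library, aPD1 + aGMCSF + aIL2RB replicate 4, was followed by one of 15109227. Genes of ribosomal RNA took 1.72 to 8.55% of counts in isotype control, 4.57 to 17.9% in aPD1, 3.07 to 10.9% in aPD1 + aGMCSF, 3.44 to 12.03% in aPD1 + aIL2RB and 2.86 to 12.6% in triple-antibody tumors. Tumors also parted along their replicate numbers, with 22 of lower number (isotype control 1 and 2, aPD1 1 to 3, aPD1 + aGMCSF 1 to 5, both aIL2RB groups 1 to 6) here called the earlier numbers and 20 called the later. Neither the labels nor the study's methods name this split, so the calls of each comparison are also counted within it. Carcinoma epithelium markers were low in these tumors (6 genes summed to 0.527 to 28.7 CPM, counts per 1000000 counts of the TMM-scaled library, and Epcam averaged 0.195 to 0.850 CPM over groups). Krt8 and Krt18 were at 0 in 10 tumors each, Epcam in 9 and Krt19 in 7. These markers were therefore not taken to measure the share of carcinoma cells. The adhesion protein Cdh1, one of them, was detected in every tumor and averaged 6.34 CPM in isotype control, 6.04 in aPD1, 3.69 in aPD1 + aGMCSF, 2.63 in aPD1 + aIL2RB and 1.99 in triple-antibody tumors.

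Levels differed widely between genes once divided by exon length. In isotype control tumors, the highest per kilobase of exon were Gapdh, at 609 CPM, Pgk1, at 466, Pkm, at 439.7, Ldha, at 359, and Pgam1, at 340.3, all glycolytic enzymes. Among hypoxia response genes the protein-folding oxidase Ero1l led with 97.9 CPM per kilobase, ahead of the mitophagy receptor Bnip3, with 69.1, and of Vegfa, with 68.4. The vessel hormone adrenomedullin (Adm) stood at 1.43 and carbonic anhydrase 12 (Car12) at 0.102 CPM per kilobase. Car12 rested on 2 to 46 counts a tumor, so only very large differences in it were detectable at this depth.

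Each gene's log2 CPM was standardized over the 42 tumors and averaged per tumor into a score, in SD units, which is given here as a description. The glycolysis score averaged 0.57 ± 0.73 (SD, n = 5) in isotype control, 0.46 ± 0.81 (n = 6) in aPD1 and 0.42 ± 0.72 (n = 9) in aPD1 + aGMCSF tumors. The lowest aPD1 tumor was replicate 1, at -0.99. The order of isotype control and aPD1 turned between the replicate-number sets. Within earlier and later numbers the score averaged 1.15 and 0.19 in isotype control, against -0.12 and 1.05 in aPD1 tumors. Over all tumors of the group, the score averaged -0.12 ± 0.77 (n = 11) with aPD1 + aIL2RB and -0.73 ± 0.45 (n = 11) with aPD1 + aGMCSF + aIL2RB. The groups overlapped broadly. The triple-antibody tumors, between -1.45 and 0.033, had the lowest mean, while the lowest tumor, at -1.57, was aPD1 + aIL2RB replicate 6. The hypoxia response score was lowest in aPD1 tumors, at -0.54 ± 0.89, and next lowest with aPD1 + aGMCSF + aIL2RB, at -0.34 ± 0.34. That order rested on aPD1 replicate 1, at -2.22, without which the aPD1 mean was -0.20 ± 0.36 (n = 5), above that of the triple-antibody tumors. The score averaged 0.31 ± 0.79 in isotype control, 0.39 ± 0.69 in aPD1 + aGMCSF and 0.18 ± 0.53 in aPD1 + aIL2RB tumors.

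**Figure D1:**
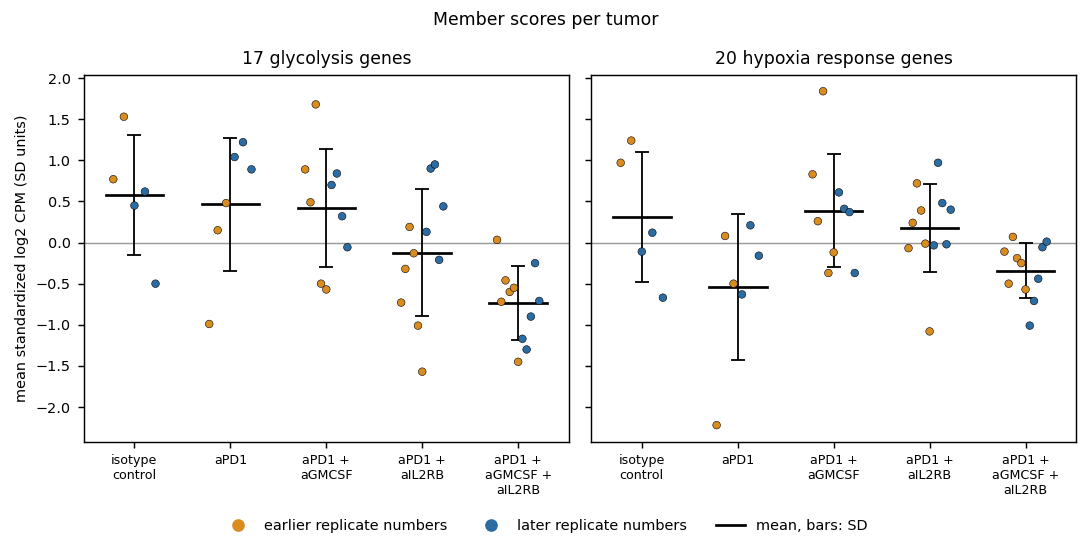
Mean standardized log2 CPM per tumor (SD units) of the 17 glycolysis genes (left) and the 20 hypoxia response genes (right), 1 point a tumor, colored by earlier or later replicate numbers, with the group mean and SD. The triple-antibody tumors lie between -1.45 and 0.033 for glycolysis, and aPD1 replicate 1 lies at -2.22 for hypoxia response.

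The hypoxia and glycolysis genes were then set against each other in each tumor. The hypoxia response score minus the glycolysis score was below 0 in 6 of 6 aPD1 tumors (0 above 0, mean -1.0 ± 0.52). It was above 0 in 1 of 5 isotype control tumors (mean -0.26 ± 0.30), in 4 of 9 with aPD1 + aGMCSF (-0.036 ± 0.27), in 8 of 11 with aPD1 + aIL2RB (0.30 ± 0.43) and in 10 of 11 with aPD1 + aGMCSF + aIL2RB (0.39 ± 0.29). By single genes, the lowest of the 5 group means lay in the triple-antibody group for 16 of 17 glycolysis genes and in aPD1 or the triple-antibody group, 9 each, for 18 of 20 hypoxia response genes. Without aPD1 replicate 1 these were 7 in aPD1 and 11 in the triple-antibody group. No gene of the list had its highest group mean in the triple-antibody group. The genes of the list rose and fell largely together over tumors, so these counts by gene are not separate results. How often each group held the lowest or highest mean over all genes tested is not given here.

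In aPD1 against isotype control tumors, 5 of the 20 hypoxia response genes were lower and 1 of the 17 glycolysis genes was higher. Those lower were Ddit4, Vegfa, Plod2, Ankrd37 and Egln1, and the gene that was higher was Pfkfb4. Over all genes tested, 6.17% were called higher and 2.54% lower (8.71% in all) by edgeR's quasi-likelihood test with Benjamini-Hochberg adjustment at 0.05, the rule used throughout. The median log2 fold change was -0.20 over the hypoxia response genes, -0.054 over the glycolysis genes and -0.0023 over all genes tested. In bulk tumor RNA, fewer cells of a type and less RNA per cell cannot be told apart.

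Ddit4 encodes REDD1, a brake on mTORC1 made under low oxygen and other stress. The isotype control tumors, in replicate order, held 54.6, 49.6, 38.4, 33.8 and 27.2 CPM of Ddit4, and the aPD1 tumors ran from 16.1 over a median of 22.7 to 33.2. The aPD1 values lay at the bottom, and only 1 isotype control tumor fell within their range. Ddit4 fell by 0.75 on the log2 scale (SE 0.17, adjusted p = 0.00550), and within the earlier and the later replicate numbers its log2 fold changes were -1.14 and -0.42. Vegfa, the main growth factor for vessels, was at 296, 325, 294, 288 and 261 CPM in isotype control tumors and from 197 over 231 to 263 in aPD1 tumors. The groups overlapped only in that the lowest isotype control tumor lay just under the highest aPD1 tumor. Vegfa fell by 0.34 (SE 0.08, adjusted p = 0.00785), with log2 fold changes of -0.48 and -0.22 within the sets.

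Plod2, a lysyl hydroxylase that prepares collagen for crosslinking, was at 334, 336, 261, 243 and 238 CPM in isotype control tumors and from 196 over 223 to 276 in aPD1 tumors. The groups overlapped among the later-numbered isotype control tumors, and Plod2 fell by 0.33 (SE 0.09, adjusted p = 0.0154; log2 fold changes of -0.54 and -0.17 within the sets). Ankrd37, a small ankyrin-repeat protein induced by HIF, was at 14.8, 16.9, 10.2, 9.79 and 7.43 CPM against 4.39, 7.77 and 9.84 for the lowest, median and highest aPD1 tumor. Its groups overlapped through the 2 lowest isotype control tumors. Ankrd37 fell by 0.70 (SE 0.20, adjusted p = 0.0201), with -1.15 and -0.31 within the sets. Some 22.7% of its exon bases also lie in exons of Lrp2bp on the opposite strand, and whether the counting used strand is not given in the sources used here.

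Egln1, the prolyl hydroxylase PHD2 that marks HIF for destruction, was at 140.4, 147, 113, 122 and 104 CPM in isotype control tumors and from 91.4 over 108 to 112 in aPD1 tumors. The lowest isotype control tumor fell inside the aPD1 range. Egln1 fell by 0.25 (SE 0.08, adjusted p = 0.0385), with log2 fold changes of -0.48 among earlier and -0.061 among later numbers. Pfkfb4, which makes and breaks down the main activator of phosphofructokinase, was at 19.5, 15.3, 17.9, 15.2 and 17.4 CPM in isotype control tumors and from 18.6 over 21.6 to 29.7 in aPD1 tumors. Only 1 isotype control tumor reached the aPD1 range, and Pfkfb4 rose by 0.40 (SE 0.11, adjusted p = 0.0216), with 0.21 and 0.58 within the sets. Its relative Pfkfb3 (0.61, adjusted p = 0.0501) and the platelet phosphofructokinase Pfkp (0.39, adjusted p = 0.0767) lay in the same direction without passing the test.

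Which tumors were compared mattered for these calls. Ddit4 and Vegfa kept theirs whichever tumor was left out. Plod2 lost its call without isotype control replicate 1 or 2 or aPD1 replicate 4 (highest adjusted p 0.0700), and Ankrd37 without these or aPD1 replicate 1 (highest 0.0921). Egln1 lost its call without isotype control replicate 1, 2 or 4 or aPD1 replicate 1 or 4 (highest 0.141), and Pfkfb4 without isotype control replicate 2 or 4 or aPD1 replicate 4 or 6 (highest 0.0936). The number of genes called, 6, fell to 3 without isotype control replicate 1 and to 2 without isotype control replicate 2 or aPD1 replicate 4. Scaled by library size alone, without the TMM factor, 0 of the 37 were higher and 9 lower. Over all genes tested the split then moved from 1045 higher and 430 lower to 769 and 1174, with the median shifting from -0.0023 to -0.084.

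The list was also followed within the replicate-number sets. Among earlier numbers (2 isotype control and 3 aPD1 tumors), 33 of 37 log2 fold changes were negative, with a median of -0.38. The edgeR test called 0 of the 37 there, with 24 at an unadjusted p under 0.05, where 0.0115% of all genes were called. Among later numbers (3 and 3 tumors), 24 were positive and 5 were called, all higher, against 13.01% of all genes. These were Pfkfb3 (0.86), Pfkp (0.68), Pfkfb4 (0.58), the MYC antagonist Mxi1 (0.38) and the aldolase Aldoa (0.31). The difference between the sets was positive for 36 of 37 genes, with a median of 0.46. By edgeR's test of that difference 0 passed, against 0.0709% of all genes, with 24 at an unadjusted p under 0.05. The 37 genes rose and fell largely together over tumors, so these counts of signs and unadjusted p are not separate results.

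**Figure D2:**
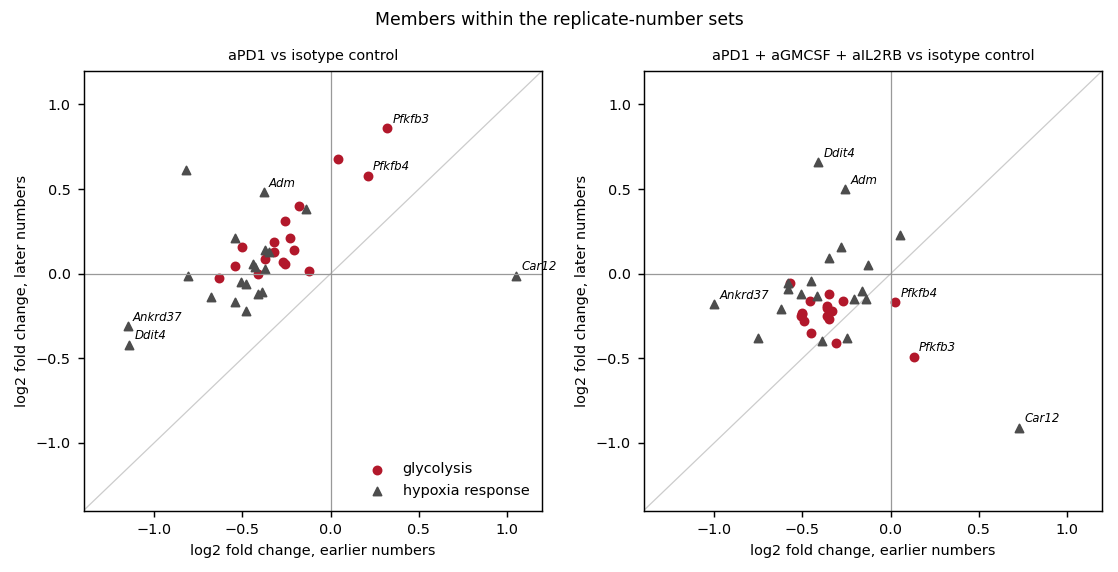
Log2 fold change of each of the 37 genes among earlier (horizontal) against later replicate numbers (vertical), for aPD1 vs isotype control (left) and aPD1 + aGMCSF + aIL2RB vs isotype control (right), with circles for glycolysis and triangles for hypoxia response. On the left 33 of 37 genes lie left of 0 but only 13 lie below 0, and on the right most genes lie below 0 in both sets.

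Markers of other cells moved with aPD1. All 5 macrophage markers were higher than in isotype control, with a sum of 843 to 996 CPM in isotype control and 1041 to 1894 in aPD1 tumors. All 5 skeletal muscle markers were higher too, from sums of 0.234 to 24.3 up to sums of 0.602 to 653 CPM. The 5 T and NK cell markers summed to 23.4 to 37.2 and 42.9 to 90.9 CPM, without overlap, but 0 of them were called by edgeR or DESeq2 and 0 had an unadjusted p under 0.05 by edgeR. Of the others, 2 of 5 endothelium markers and 1 of 4 tested neutrophil markers were higher, and 1 of 5 fibroblast markers was higher and 1 lower. The ribosomal RNA share was 1.72 to 8.55% in isotype control and 4.57 to 17.9% in aPD1 tumors, and with its 5 genes removed from the counts the number of the 37 genes called was 6 as well. The part of the markers in the results on the 37 genes was not tested.

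The 3 comparisons with aPD1 alone share the same 6 aPD1 tumors. Each is given by its own values, and a likeness between them is no independent support.

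In aPD1 + aGMCSF against aPD1 tumors, 6 hypoxia response genes were higher and 2 glycolysis regulators were lower, 8 of 37 in all. Over all genes 4.77% were higher, 8.75% lower and 13.5% called in either direction. Those that rose were Ddit4, Vegfa, Plod2, Egln3, P4ha1 and Ero1l, and those that fell were Pfkfb4 and Pfkfb3. The median log2 fold change was 0.21 over the hypoxia response genes, -0.021 over the glycolysis genes and 0.0066 over all genes tested.

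Ddit4 ran from 35.1 over a median of 49.9 to 56.5 CPM in the aPD1 + aGMCSF tumors. All 9 lay above the 6 aPD1 tumors, whose highest was 33.2, and Ddit4 rose by 0.98 (SE 0.15, adjusted p = 8.30e-05; log2 fold changes of 1.08 and 0.84 within the earlier and the later set). Vegfa ran from 254 over 307 to 363 CPM, overlapping the aPD1 tumors only at its lower end. It rose by 0.40 (SE 0.07, adjusted p = 0.000313). Plod2 ran from 254 over 289.6 to 342 CPM, with only the highest aPD1 tumor inside that range, and rose by 0.39 (SE 0.08, adjusted p = 0.000824).

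Egln3, the prolyl hydroxylase PHD3 and itself a HIF target, was at 62.7, 66.0, 42.4, 35.6 and 37.3 CPM in isotype control tumors. It ran from 25.02 over 37.3 to 53.7 in aPD1 and from 34.6 over 57.02 to 86.5 in aPD1 + aGMCSF tumors. The ranges overlapped, with 3 of the aPD1 + aGMCSF tumors above every tumor of the other groups. Egln3 rose by 0.63 against aPD1 (SE 0.17, adjusted p = 0.0103). P4ha1, a subunit of collagen prolyl hydroxylase, was at 205, 223, 185, 189 and 177 CPM in isotype control tumors. It ran from 147 over 190.1 to 204 in aPD1 and from 189 over 206 to 259 in aPD1 + aGMCSF tumors, again overlapping. P4ha1 rose by 0.22 (SE 0.07, adjusted p = 0.0297), with log2 fold changes of 0.40 and 0.028 within the sets. Ero1l, which passes on electrons from disulfide formation in the endoplasmic reticulum, rose by 0.42 (SE 0.14, adjusted p = 0.0351).

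Pfkfb4 ran from 14.8 over 17.5 to 20.1 CPM with aPD1 + aGMCSF, overlapping the lowest aPD1 tumors, and fell by 0.39 (SE 0.10, adjusted p = 0.00639). Pfkfb3, which mainly builds the phosphofructokinase activator, averaged 52.6 ± 8.77 against 74.8 ± 13.01 CPM in aPD1 tumors and fell by 0.51 (SE 0.17, adjusted p = 0.0417). The calls of Ddit4, Vegfa, Plod2, Pfkfb4 and Egln3 stood whichever tumor was left out. That of P4ha1 was lost without aPD1 replicate 1 or 3 or aPD1 + aGMCSF replicate 3 (highest adjusted p 0.123). Ero1l lost its call without aPD1 replicate 1, 3 or 4 or aPD1 + aGMCSF replicate 1, 3, 7, 8 or 9 (highest 0.131). Pfkfb3 lost it without aPD1 replicate 1, 4, 5 or 6 or aPD1 + aGMCSF replicate 2, 6, 7, 8 or 9 (highest 0.147). The 8 calls became 5 without aPD1 replicate 1 and 13 without aPD1 replicate 2.

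Within the sets, 1 gene, Ddit4, was called among the earlier numbers (0.155% of all genes), with 32 of 37 positive, and 3 were higher (Ddit4, Plod2 and Vegfa) and 4 lower (Pfkfb3, Pfkfb4, Pfkp and Aldoa) among the later (16.4% of all genes). Scaled by library size alone, 11 were higher and 1 lower, and over all genes the split moved from 807 higher and 1482 lower to 1402 and 1120. All 5 macrophage markers were lower than in aPD1 tumors (sums of 799.8 to 966 CPM), as were 3 of 4 tested neutrophil markers. The neutrophil markers summed to 9.32 to 17.2 CPM against 17.5 to 43.95 in aPD1 tumors, without overlap, and 1 of 5 fibroblast markers was higher. Their part in these results was not tested.

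Against isotype control, aPD1 + aGMCSF tumors showed 0 of the 37 genes called by edgeR, against 0% of all genes. None of the 37 had an unadjusted p under 0.05 (0 genes, against 938 over all genes), and DESeq2 called 0 as well. The median log2 fold change over the 37 genes was -0.01, with 16 positive and 21 negative. Among earlier and later numbers edgeR called 0 as well (0.0287% and 0% of all genes), with 4 and 4 at an unadjusted p under 0.05.

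In aPD1 + aIL2RB against aPD1 tumors, 6 hypoxia response genes were higher and 3 glycolysis genes were lower, where 12.98% of all genes were higher, 14.5% lower and 27.4% called. Those that rose were Ddit4, P4ha1, Plod2, Vegfa, Ankrd37 and Kdm3a, and those that fell were Pfkfb4, Pfkp and Pfkfb3. The 9 of 37 called are close to the share over all genes. The median log2 fold change was 0.14 over the hypoxia response genes, -0.14 over the glycolysis genes and 0.0036 over all genes.

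Ddit4 ran from 37.7 over 47.3 to 57.5 CPM in aPD1 + aIL2RB tumors, all 11 above the 6 aPD1 tumors. It rose by 0.95 (SE 0.15, adjusted p = 5.19e-06), and its log2 fold change was 0.95 in each set. P4ha1 ran from 185 over 227 to 268 CPM and rose by 0.30 (SE 0.07, adjusted p = 0.000541), with 0.46 and 0.14 within the sets. Of these tumors 9 of 11 lay above all aPD1 tumors, of which the highest was at 204. Plod2 ran from 218 over 284 to 325 CPM and rose by 0.33 (SE 0.08, adjusted p = 0.000794). Vegfa ran from 224 over 283 to 299 and rose by 0.26 (SE 0.07, adjusted p = 0.00440), both overlapping the aPD1 tumors at the lower end. Ankrd37 ran from 8.38 over 11.03 to 14.2 CPM, with 2 aPD1 tumors inside that range, and rose by 0.59 (SE 0.17, adjusted p = 0.00734). Kdm3a, a histone demethylase induced by HIF, rose by 0.25 (SE 0.08, adjusted p = 0.0225).

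Pfkp, the platelet form of phosphofructokinase that commits glucose to glycolysis, was at 79.7, 95.02, 79.8, 76.1 and 69.5 CPM in isotype control tumors. It ran from 89.4 over 102 to 128 in aPD1 and from 49.4 over 68.9 to 106 in aPD1 + aIL2RB tumors. The aPD1 tumors lay toward the top of the study's range, and 6 of the 11 aPD1 + aIL2RB tumors lay below every isotype control tumor. Pfkp fell by 0.58 (SE 0.12, adjusted p = 0.000157). Pfkfb4 ran from 13.9 over 15.4 to 18.96 CPM, meeting the aPD1 tumors only at its top, and fell by 0.53 (SE 0.09, adjusted p = 3.35e-05). Pfkfb3 averaged 47.9 ± 12.2 CPM and fell by 0.64 (SE 0.17, adjusted p = 0.00265).

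Of the 9 calls, 8 stood whichever tumor was left out. Kdm3a lost its call without aPD1 replicate 1, 3 or 4 or aPD1 + aIL2RB replicate 5 (highest adjusted p 0.0971). Within the sets, 5 were higher and 1, Pfkp, lower among earlier numbers (15.6% of all genes called), and 3 higher (Ddit4, Ankrd37 and Plod2) and 5 lower among later numbers (22.02%). Scaled by library size alone, 7 of the 37 were higher and 3 lower, while over all genes the split moved from 2198 higher and 2449 lower to 3125 and 1981. All 5 macrophage and all 5 muscle markers were lower than in aPD1 tumors, as were 4 of 5 T and NK cell markers (sums of 1.71 to 22.2 CPM). The carcinoma marker Cdh1 (-1.20, adjusted p = 0.000447) and 1 of 4 tested neutrophil markers were lower too, 1 of 5 endothelium markers was higher, and 2 of 5 fibroblast markers were higher and 2 lower. Their part was not tested.

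Against isotype control, 0 of the 37 genes were called in aPD1 + aIL2RB tumors by edgeR (3.20% of all genes), with 8 at an unadjusted p under 0.05. DESeq2 called 1, Gapdh, lower. All 17 glycolysis genes had a negative log2 fold change (median -0.14), against a median of 0.011 over all genes. Among earlier numbers 6 were called, all lower (2.35% of all genes), and among later numbers 1, P4ha1, higher (1.66%). With replicate number as a block, P4ha1 was higher and Gapdh, Eno1, Ldha and Egln1 were lower (5 in all), where 13.2% of all genes were called. Of the markers, 4 of 5 for T and NK cells and Cdh1 (-1.26, adjusted p = 0.00540) were lower and 2 of 5 for endothelium and 1 of 5 for fibroblasts higher, and their part was not tested. Leaving out aPD1 + aIL2RB replicate 8 or 9 gave 1 call, Gapdh (lower, adjusted p 0.0445 and 0.0372).

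In aPD1 + aGMCSF + aIL2RB against aPD1 tumors, 10 of 17 glycolysis genes were lower and 4 of 20 hypoxia response genes were higher. Over all genes 14.3% were lower, 13.1% higher and 27.4% called. Those that fell were Pfkp, Pfkfb4, Tpi1, Gapdh, Pfkfb3, Slc16a3, Pkm, Hk2, Aldoa and Ldha, which span glucose trapping to lactate export, and those that rose were Ddit4, Plod2, P4ha1 and Vegfa. All 17 glycolysis genes had a negative log2 fold change, with a median of -0.25, against -0.014 over the hypoxia response genes and 0.011 over all genes tested.

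Pfkp ran from 50.8 over 60.6 to 95.5 CPM in the triple-antibody tumors, of which only the highest entered the aPD1 range. It fell by 0.70 (SE 0.12, adjusted p = 1.40e-05), with log2 fold changes of -0.35 and -1.09 within the sets. Pfkfb4 ran from 12.9 over 15.9 to 23.6 CPM, overlapping aPD1 at the top, and fell by 0.45 (SE 0.09, adjusted p = 0.000290). Tpi1, which interconverts the triose phosphates, was at 493, 548, 459, 463 and 387 CPM in isotype control tumors and from 359 over 468 to 509.5 in aPD1 tumors. With the triple antibodies it ran from 335 over 369 to 397, a narrow band that only the lowest tumor of aPD1 and of isotype control entered. Tpi1 fell by 0.32 against aPD1 (SE 0.07, adjusted p = 0.00105).

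Gapdh, the glyceraldehyde phosphate dehydrogenase that is often used as a reference gene, was at 2513, 2638, 2478, 2673 and 2278 CPM in isotype control tumors. It ran from 2062 over 2448 to 2702 in aPD1 tumors and from 1876 over 2059 to 2155 with the triple antibodies. All 11 triple-antibody tumors lay below all 5 isotype control tumors and overlapped only the lowest aPD1 tumor. Gapdh fell by 0.25 against aPD1 (SE 0.06, adjusted p = 0.00136). Pkm, the pyruvate kinase of most tumor and immune cells, was at 2252, 2491, 2037, 2254 and 1961 CPM in isotype control tumors. It ran from 1893 over 2161 to 2380 in aPD1 and from 1692 over 1855 to 1994 with the triple antibodies, with overlap at the lowest aPD1 and isotype control tumors. Pkm fell by 0.23 (SE 0.06, adjusted p = 0.00247).

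The other glycolysis genes that fell against aPD1 were the lactate exporter Slc16a3 (-0.39, SE 0.10, adjusted p = 0.00194), hexokinase Hk2 (-0.39, SE 0.10, adjusted p = 0.00427), Aldoa (-0.33, SE 0.09, adjusted p = 0.00516), Ldha (-0.28, SE 0.08, adjusted p = 0.0103) and Pfkfb3 (-0.69, SE 0.17, adjusted p = 0.00144). Ddit4 ran from 30.6 over 45.9 to 58.1 CPM, with only the lowest tumor inside the aPD1 range, and rose by 0.90 (SE 0.15, adjusted p = 1.51e-05). Plod2 ran from 242 over 281 to 309.7 CPM and rose by 0.31 (SE 0.08, adjusted p = 0.00207), and P4ha1 ran from 194 over 217 to 235 and rose by 0.26 (SE 0.07, adjusted p = 0.00325). Plod2 overlapped only the highest aPD1 tumor, at 276, and P4ha1 the upper aPD1 tumors. Vegfa ran from 224 over 266 to 279 CPM, overlapping the upper aPD1 tumors, and rose by 0.18 (SE 0.07, adjusted p = 0.0448). That call was lost without aPD1 replicate 1, 3 or 4 or any of 9 triple-antibody tumors (replicates 1 to 6 and 9 to 11; highest adjusted p 0.150), while the other 13 calls stood whichever tumor was left out.

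**Figure D3:**
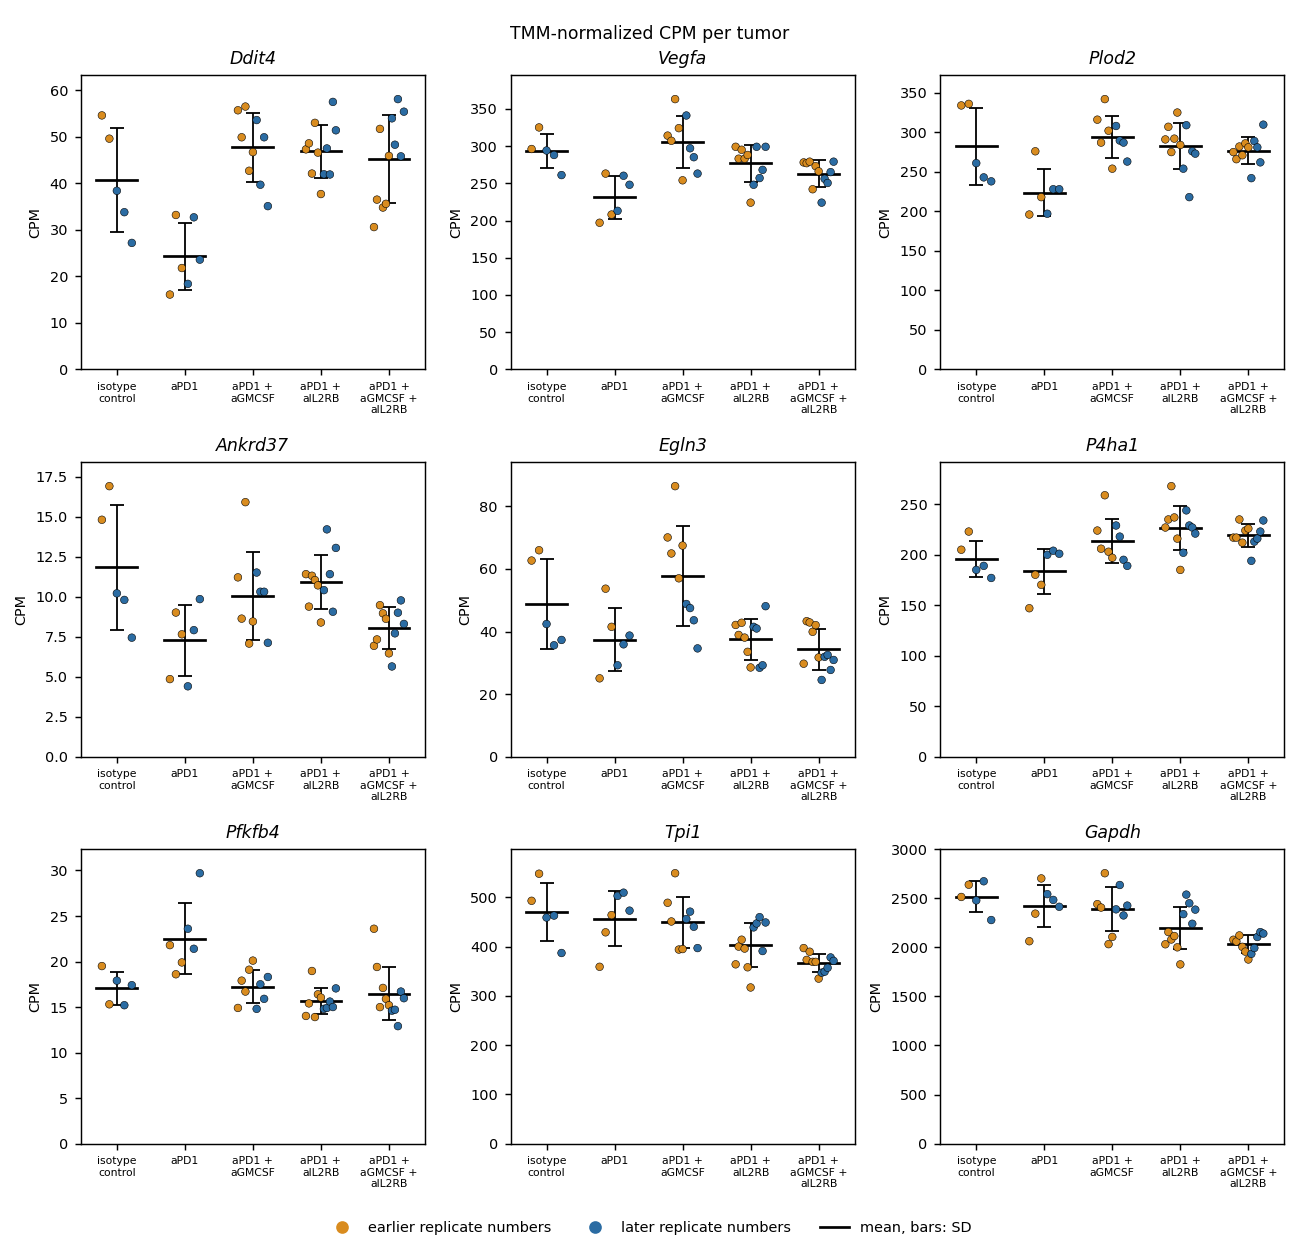
CPM per tumor (vertical axis, from 0) of 9 genes in the 5 groups, 1 point a tumor, colored by earlier or later replicate numbers, with the group mean and SD. Ddit4 is lowest in aPD1 tumors (16.1 to 33.2), Egln3 reaches its top of 86.5 with aPD1 + aGMCSF, and Gapdh with the triple antibodies (1876 to 2155) lies below every isotype control tumor (2278 to 2673).

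The lower calls of glycolysis genes against aPD1 lay among later replicate numbers. There 15 of 17 glycolysis genes and 4 hypoxia response genes (Car9, Ndrg1, Mxi1 and Hilpda) were lower and 2, Ddit4 and Plod2, higher, where 29.6% of all genes were called. Among earlier numbers 2 genes, Ddit4 and P4ha1, were higher and 0 lower by edgeR (5.37% of all genes called, with 7 of the 37 at an unadjusted p under 0.05). The difference between the sets passed edgeR's test for 5 of the 37 (9.18% of all genes), each lower in the later set: Pfkfb3 (-0.18 among earlier against -1.35 among later numbers), Pfkp, Pfkfb4, Gpi1 and Ndrg1. Scaled by library size alone, 4 of the 37 were higher and 9 lower, while over all genes the split moved from 2215 higher and 2419 lower to 3279 and 1879. Marker levels moved as well: all 5 macrophage and 5 T and NK cell markers were lower than in aPD1 tumors, with sums of 601 to 1355 and 0.565 to 48.3 CPM, and 3 of 5 fibroblast and 2 of 5 endothelium markers were higher. Of 5 tested carcinoma markers 2 were lower, Cdh1 (-1.57, adjusted p = 1.69e-05) and Epcam (-2.05, adjusted p = 0.0395), as were 2 of 4 tested neutrophil markers and 1 of 5 muscle markers. Their part was not tested.

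Against isotype control, the triple-antibody tumors showed 13 of the 37 genes lower and 0 higher, where 4.51% of all genes were lower, 5.69% higher and 10.2% called. Of these, 9 were glycolysis genes (Gapdh, Tpi1, Pkm, Ldha, Slc16a3, Pgk1, Eno1, Pgam1 and Pdk1) and 4 hypoxia response genes (Egln1, Ankrd37, Higd1a and Egln3). All 17 glycolysis genes were negative, with a median log2 fold change of -0.28, against -0.21 over the hypoxia response genes and 0.016 over all genes tested. Ddit4, Plod2 and Vegfa, which differed between aPD1 and isotype control, did not pass here, and for Ddit4 the difference was 0.15 on the log2 scale (SE 0.15, adjusted p = 0.557).

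Gapdh fell by 0.30 against isotype control (SE 0.06, adjusted p = 0.00264), with no overlap of the groups and log2 fold changes of -0.35 and -0.27 within the sets. Tpi1 fell by 0.36 (SE 0.08, adjusted p = 0.00365), and Pkm by 0.25 (SE 0.06, adjusted p = 0.00927). Egln1 ran from 94.3 over 102 to 112 CPM, with 1 isotype control tumor inside that range, and fell by 0.29 (SE 0.07, adjusted p = 0.00799). Ankrd37 ran from 5.63 over 8.29 to 9.76 CPM, with 1 isotype control tumor inside that range. It fell by 0.56 (SE 0.17, adjusted p = 0.0308; -1.0 and -0.18 within the sets). Pgam1, a phosphoglycerate mutase, was at 692, 764, 641, 685 and 589.5 CPM in isotype control tumors and from 512 over 589 to 611 with the triple antibodies. Only the lowest isotype control tumor fell in that range, and Pgam1 fell by 0.22 (SE 0.07, adjusted p = 0.0330).

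The others that fell were Ldha (-0.36, SE 0.09, adjusted p = 0.00952), Slc16a3 (-0.39, SE 0.10, adjusted p = 0.0143), the kinases Pgk1 (-0.35, SE 0.10, adjusted p = 0.0255) and Pdk1 (-0.28, SE 0.09, adjusted p = 0.0331), the enolase Eno1 (-0.27, SE 0.08, adjusted p = 0.0284), the respiratory supercomplex factor Higd1a (-0.29, SE 0.09, adjusted p = 0.0391) and Egln3 (-0.51, SE 0.17, adjusted p = 0.0455). Pdk1 shuts pyruvate out of the mitochondrial TCA cycle. Pgk1 shares reads with a near-identical copy, Pgk1-rs7, whose counts were 2.78 to 19.5% of its own. Pgk1-rs7 had a log2 fold change of -0.76 in the same comparison (adjusted p = 0.0455), so how the reads were split between the copies is uncertain.

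The call of most genes rested on isotype control replicate 2, the highest isotype control tumor for Tpi1, Pkm and Pgam1. Without it 2 of the 37 genes, Gapdh and Tpi1, kept their call, and the highest adjusted p of those lost was 0.209, for Egln3. Without isotype control replicate 1, 4 or 5 the count was 8, 5 or 20, and without replicate 3 Pdk1 alone lost its call. Single triple-antibody tumors decided only Pgam1 (replicate 6), Pdk1 (6 or 8), Higd1a (3, 5, 6 or 8) and Egln3 (1 or 6 to 11), with adjusted p up to 0.0707 without them. Among earlier numbers 9 were lower (1.94% of all genes called), and among later numbers 8 lower and 2, Ddit4 and P4ha1, higher (11.4%). Ddit4 was at -0.41 in the earlier and 0.66 in the later set, and its difference between the sets, 1.07, passed the test (adjusted p = 0.0333; 1.10% of all genes did). Here 3 of 5 endothelium markers (sums of 119 to 164 and 165 to 214 CPM) and 3 of 5 fibroblast markers were higher and 3 of 5 T and NK cell markers lower. Cdh1 was lower (-1.64, adjusted p = 0.000187) and 1 of 5 muscle markers higher. Their part was not tested.

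**Figure D4:**
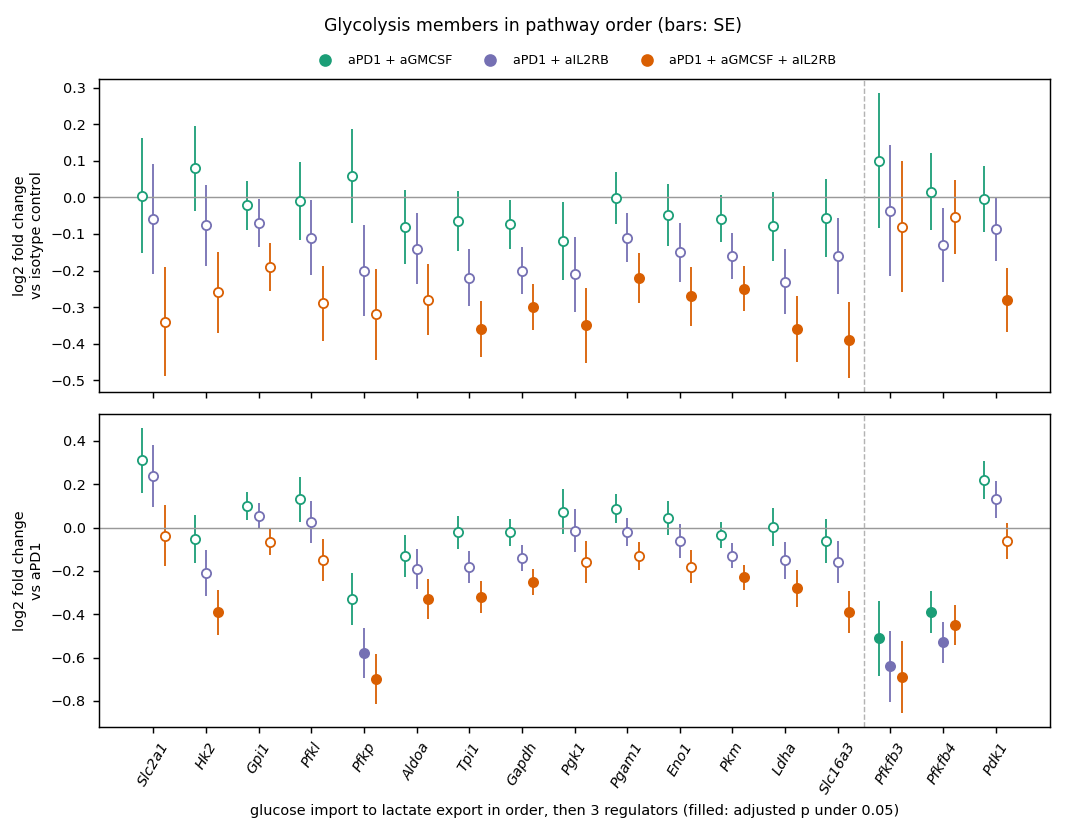
Log2 fold change (vertical axis, bars: SE) of the 17 glycolysis genes from glucose import to lactate export, then 3 regulators, for the 3 groups with blocking antibodies against isotype control (top) and against aPD1 (bottom), with filled points for an adjusted p under 0.05. With the triple antibodies all 17 lie below 0 in both panels, and 9 and 10 are filled.

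Among the groups with blocking antibodies, Egln3 stood apart with aPD1 + aGMCSF. Of the 37 genes it was the only one called between aPD1 + aIL2RB and aPD1 + aGMCSF tumors, lower in the former, where 1.52% of all genes were called. It ran from 28.4 over 38.9 to 48.1 CPM with aPD1 + aIL2RB, overlapping the lower aPD1 + aGMCSF tumors. With the triple antibodies it ran from 24.5 over 31.9 to 43.3, overlapping only the lowest aPD1 + aGMCSF tumor, at 34.6. It fell by 0.63 in aPD1 + aIL2RB against aPD1 + aGMCSF tumors (SE 0.14, adjusted p = 0.0117), with log2 fold changes of -0.89 and -0.22 within the sets. Without aPD1 + aIL2RB replicate 9, Pfkp (adjusted p = 0.0469) was called too, 2 in all. Of the markers, 4 of 5 for T and NK cells were lower and 2 of 5 for fibroblasts higher with aPD1 + aIL2RB, and their part was not tested. Among earlier numbers Egln3 alone was called (1.73% of all genes), and among later numbers 0 of the 37 by edgeR, with 0 at an unadjusted p under 0.05, and 0.371% of all genes.

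Between aPD1 + aGMCSF + aIL2RB and aPD1 + aGMCSF tumors, 12 of the 37 genes were lower and 0 higher, where 1.15% of all genes were lower, 0.980% higher and 2.13% called. These 12 were Egln3, Tpi1, Gapdh, Pgam1, Slc16a3, Pdk1, Ldha, Pkm, Pfkp, Hk2, Egln1 and Vegfa. Of the 37 log2 fold changes 36 were negative, with a median of -0.22, against 0.0087 over all genes tested. Egln3 fell by 0.76 (SE 0.14, adjusted p = 0.00344), Tpi1 by 0.29 (SE 0.07, adjusted p = 0.0124) and Gapdh by 0.23 (SE 0.05, adjusted p = 0.0147). Tpi1 ran from 394 over 451 to 549 CPM and Gapdh from 2032 over 2405 to 2755 with aPD1 + aGMCSF, so that 3 of these tumors for Tpi1 and 2 for Gapdh fell within the triple-antibody range. Pgam1 ran from 570.0 over 668 to 784 CPM there and fell by 0.22 (SE 0.06, adjusted p = 0.0339), again with overlap. The other 8 had log2 fold changes of -0.20 to -0.38, with adjusted p from 0.0339 to 0.0476.

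The calls of Egln3, Tpi1 and Gapdh stood whichever tumor was left out, and those of the other 9 did not, with adjusted p up to 0.112. The count became 3 without aPD1 + aGMCSF replicate 3, 6 or 7 or triple-antibody replicate 6 or 8. It became 4 without aPD1 + aGMCSF replicate 1, 2 or 8, 5 without triple-antibody replicate 7 and 6 without triple-antibody replicate 9 or 11. Within the sets, 1, Egln3, was lower among earlier numbers (0.264% of all genes called) and 13 among later (7.68%). The median log2 fold change of the 37 was -0.23 in the earlier and -0.24 in the later set. Of the markers, 3 of 5 fibroblast and 2 of 5 endothelium genes were higher with the triple antibodies, while Cdh1 (-0.86, adjusted p = 0.0480) and 1 of 5 T and NK cell markers were lower, and their part was not tested.

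Between the triple-antibody and aPD1 + aIL2RB tumors, 0 of the 37 genes were called by edgeR (0.00591% of all genes) or by DESeq2, with 13 at an unadjusted p under 0.05. Still, 36 of 37 log2 fold changes were negative, with a median of -0.13, against 0.004 over all genes tested. In the later numbers 12 of the 37 were lower (2.04% of all genes called): Slc2a1, Pfkl, Pfkp, Aldoa, Tpi1, Gapdh, Pgam1, Pkm, Ldha, Slc16a3, Ndrg1 and Mxi1. In the earlier numbers 0 were called by edgeR (0%), with 1 at an unadjusted p under 0.05. The difference between the sets passed for 0 of the 37 by edgeR, with 9 at an unadjusted p under 0.05 and 1.94% of all genes called.

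**Figure D5:**
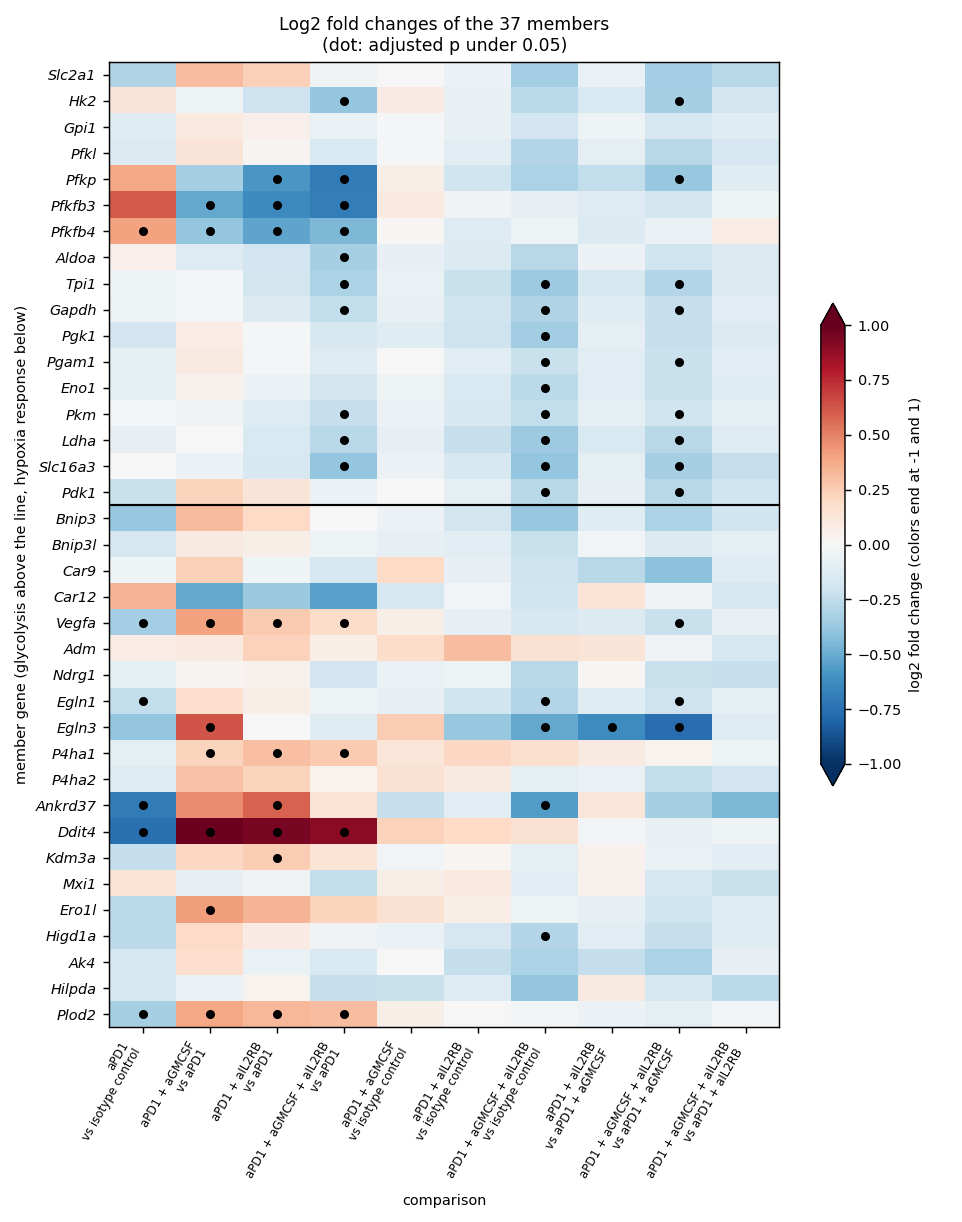
Log2 fold change (color) of each of the 37 genes (rows) in the 10 pairs of groups (columns), with a dot for an adjusted p under 0.05. Ddit4 is at -0.75 for aPD1 against isotype control and at 0.90 to 0.98 for the 3 other groups against aPD1, and the triple-antibody columns hold 10, 13 and 12 genes called lower against aPD1, isotype control and aPD1 + aGMCSF.

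The effect of aGMCSF also differed between tumors with and without aIL2RB, in a contrast added after seeing the data, for 10 of the 37 genes, where 8.34% of all genes passed. It was lower with aIL2RB for 9 of them, Ddit4, Ankrd37, Egln3, Slc2a1, Ero1l, Bnip3, Vegfa, Plod2 and Pdk1, and higher for Pfkfb4. Without aPD1 replicate 1 or 4 the count was 6 (6.43% and 3.61% of all genes), and Slc2a1, Ero1l, Bnip3 and Egln3 lost their calls. Without aPD1 replicate 3 or 6 it was 7 (9.65% and 5.84%), and Slc2a1, Ero1l and Bnip3 lost theirs. Pfkfb4 lost its call without replicate 6. Without aPD1 replicate 2 or 5 the count was 12 (11.2% and 6.62%). Tumors of the other groups were not left out for this contrast.

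With treatment held in the model, 6 of the 37 genes were called between the replicate-number sets, a smaller share than the 25.1% called over all genes. The split was found in these same tumors, so its calls and p-values describe it and are no independent test of it. Ldha (0.16, SE 0.05, adjusted p = 0.0110), Eno1 (0.15, SE 0.04, adjusted p = 0.00742) and Slc16a3 (0.15, SE 0.06, adjusted p = 0.0396) were higher in later numbers. Egln3 (-0.36, SE 0.08, adjusted p = 0.00164), Kdm3a (-0.18, SE 0.04, adjusted p = 0.00246) and Plod2 (-0.12, SE 0.04, adjusted p = 0.0377) were lower. Of 5 tested carcinoma markers, Cdh1 was not called and the other 4, each at 0 in several tumors, were higher in later numbers: Krt8 (4.66, adjusted p = 4.97e-12), Krt19 (4.16, adjusted p = 2.37e-11), Krt18 (4.09, adjusted p = 3.50e-10) and Epcam (2.22, adjusted p = 5.10e-05). So were all 5 adipocyte markers, among them Adipoq (1.94, adjusted p = 0.000952), and both tested red cell markers. Of the T and NK cell markers 4 of 5 were lower, among them Cd8a (-1.11, adjusted p = 0.00700), as were the neutrophil marker Csf3r (-0.44, adjusted p = 0.0185), the fibroblast markers Dcn and Pdgfra (-0.16 and -0.31, adjusted p = 0.00345 and 0.000800) and the endothelium marker Emcn (-0.21, adjusted p = 0.0123). Their part in the differences between the sets was not tested.

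In the 10 pairs of groups over all tumors, 13 of the 37 genes passed no test, although some of them passed within a replicate-number set or in the contrast of aGMCSF with and without aIL2RB. Among them were the glucose importer Slc2a1, at 186 ± 35.6 CPM in isotype control, 151 ± 35.3 in aPD1 and 147 ± 22.6 in triple-antibody tumors, and the isomerase Gpi1, at 490.3 ± 52.4, 449.8 ± 44.05 and 429.9 ± 26.6. The liver phosphofructokinase Pfkl, the mitophagy receptors Bnip3 and Bnip3l, the carbonic anhydrases Car9 and Car12, Adm, the stress protein Ndrg1, the second collagen prolyl hydroxylase subunit P4ha2, Mxi1, the adenylate kinase Ak4 and the lipid droplet protein Hilpda were the rest.

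Genes of the same pathways outside the 37 were taken from fixed lists, of which the first held regulators of HIF. Hif1a, the oxygen-sensitive subunit, averaged 198 ± 18.03 CPM (n = 5) in isotype control and 238 ± 18.7 (n = 6) in aPD1 tumors and rose by 0.26 (SE 0.07, adjusted p = 0.0152). It averaged 217 ± 19.04 (n = 9), 203 ± 15.04 (n = 11) and 218 ± 16.6 (n = 11) with aGMCSF, aIL2RB and both, and only the fall in aPD1 + aIL2RB passed against aPD1 (-0.23, SE 0.06, adjusted p = 0.00273). Epas1, the second such subunit (HIF-2 alpha), common in vessels and macrophages, averaged 20.01 ± 2.42 CPM in isotype control and 32.5 ± 7.32 in aPD1 tumors, a rise of 0.70 (SE 0.18, adjusted p = 0.0132). It fell against aPD1 with aGMCSF (-0.57, SE 0.16, adjusted p = 0.0105) and with aIL2RB (-0.53, SE 0.15, adjusted p = 0.00574). Vhl, the ubiquitin ligase subunit that recognises hydroxylated HIF, averaged 24.1 to 27.8 CPM over the 5 groups and passed no test. Of the 13 genes of this list, 2 rose in aPD1 against isotype control (6.17% of all genes did), and 1 and 3 fell against aPD1 with aGMCSF and with aIL2RB (8.75% and 14.5% of all genes did). With both, 1 rose, Arnt, the constant partner of HIF (0.16, SE 0.06, adjusted p = 0.0387), where 13.1% of all genes were higher.

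Other glycolysis genes, 14 of 18 of which had counts enough to test, formed the next list. In aPD1 against isotype control 3 rose: Slc2a3, the glucose importer of white blood cells and neurons (0.95, SE 0.24, adjusted p = 0.0108), Hk3, the hexokinase of myeloid cells (1.32, SE 0.40, adjusted p = 0.0311), and Pgam2, the muscle mutase (2.72, SE 0.64, adjusted p = 0.00664). All 3 fell against aPD1 in the other groups, in which 3, 5 and 6 of the 14 were lower with aGMCSF, aIL2RB and both, where 8.75%, 14.5% and 14.3% of all genes were lower. The lactate dehydrogenase Ldhb was higher with aIL2RB (0.40, SE 0.12, adjusted p = 0.0117) and with both (0.31, SE 0.12, adjusted p = 0.0496). Slc2a3 averaged 9.34 ± 2.58 CPM in aPD1 and 3.58 ± 1.60 in triple-antibody tumors (-1.39, SE 0.19, adjusted p = 1.22e-06).

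Of 29 other hypoxia response genes, 4 rose and 1 fell in aPD1 against isotype control, where 8.71% of all genes were called. Among them Loxl2, a lysyl oxidase, rose by 1.00 (SE 0.25, adjusted p = 0.0104) and the nuclear receptor Rora by 0.95 (SE 0.25, adjusted p = 0.0148). Against aPD1, 2 rose and 4 fell with aGMCSF, 6 and 5 with aIL2RB, and 5 and 6 with both, where 13.5%, 27.4% and 27.4% of all genes were called. Igfbp3, a binding protein of insulin-like growth factors, rose against aPD1 in all 3 groups, by 0.65, 0.82 and 0.83 with aGMCSF, aIL2RB and both (adjusted p 0.000936, 5.61e-06 and 5.96e-06). Loxl2 fell against aPD1 with aGMCSF (-0.75, adjusted p = 0.0139). Flt1, a receptor for Vegfa found on vessels, rose against isotype control with both antibodies (0.38, SE 0.10, adjusted p = 0.0137).

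Of 27 genes of pyruvate entry, the TCA cycle and the respiratory chain, 2 rose and 1 fell in aPD1 against isotype control, near the 8.71% called over all genes. Pdk4, a fasting-induced kinase of pyruvate dehydrogenase that is high in muscle, rose by 2.20 (SE 0.53, adjusted p = 0.00757), and Pdha1, a subunit of pyruvate dehydrogenase itself, fell by 0.20 (SE 0.05, adjusted p = 0.0189). With the triple antibodies against isotype control 4 fell and 0 rose by edgeR (4.51% and 5.69% of all genes did), among them the complex III subunit Uqcrc1 (-0.20, SE 0.06, adjusted p = 0.0199), with 22 of 27 log2 fold changes negative and a median of -0.12. Of 10 genes of the ATF4 stress response, a pathway that also acts on Ddit4, 5 moved against aPD1 with aIL2RB, 3 up and 2 down, where 12.98% of all genes were higher and 14.5% lower. Against aPD1, Ddit3 (CHOP) rose with aGMCSF, aIL2RB and both by 0.47, 0.65 and 0.59 (adjusted p 0.0130, 0.000118 and 0.000496) and Atf3 fell by 0.68, 1.05 and 1.18 (adjusted p 0.0461, 0.000390 and 0.000118).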

How the data were processed

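RNA-seq was carried out on 42 bulk MC38 tumors. Per the labels and the study's methods, the authors selected poly(A) RNA, aligned reads to founder-strain transcriptomes with Bowtie 1.2.3 (GRCm38/mm10 coordinates) and deposited total expected counts per gene. Expected counts share reads between similar genes, so near copies are uncertain, and 15.2% of the deposited values were not whole. No per-sample column was left unused (0). Depth limits low genes such as Car12.

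Expected counts were rounded. Genes were filtered with filterByExpr (minimum count 10, minimum total 15), scaled by TMM, and tested with edgeR 4.0.16 (R 4.3.3) by the quasi-likelihood test in 1 fit of all 42 tumors with group as the factor. P-values were adjusted by Benjamini-Hochberg over the 16932 genes tested, with a threshold of 0.05. CPM used TMM-scaled library sizes, and log2 CPM a prior count of 2. The study's own tool, DESeq2 (here 1.42.0), was an alternative. The others were DESeq2's size factors, library size alone, looser and stricter filters, only the groups compared, 5 rRNA genes removed, the replicate number as a block, the replicate-number set as a term or each set alone, and each tumor left out. The procedure was tested on simulated data. Summaries and plots used Python 3.11.15, numpy 2.4.6, pandas 2.3.3 and matplotlib 3.10.9.

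The labels call replicates biological, and p-values measure the spread between these tumors. The 37 genes, the pathway and marker lists and the replicate-number split were chosen with earlier results of these data known. Values by tumor are given for the 4 genes with the smallest adjusted p, and for the largest log2 fold change, among the genes called in each pair of groups. Hif1a, Epas1, Vhl and up to 3 called genes per pathway list and pair could also be named. Same-numbered tumors of different groups did not deviate together throughout (67 pairs, 16 with a correlation over 0.1), so the numbers were not taken to pair tumors. Symbols came from the reference annotation given for GRCm38, which found 26629 of 26811. One gene of the pathway lists is not reported here by name.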

Additional observations from a re-analysis of the deposited data

Results flagged for a closer look

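Among the 48 sets of values examined for a tumor far from the rest of its group, 3 held one, where chance gives about 1 in 20. The mean score of all 37 genes was -1.66 in aPD1 replicate 1, against -0.052 to 0.68 in the other aPD1 tumors. Its hypoxia response score was -2.22, against -0.63 to 0.21, and without it the aPD1 mean moved from -0.54 to -0.20, above the -0.34 of the triple-antibody tumors. Ankrd37 reached 15.9 CPM in aPD1 + aGMCSF replicate 3, with the other tumors of that group at 7.06 to 11.5.

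The effect of aGMCSF with aIL2RB present (triple antibodies against aPD1 + aIL2RB) was set against its effect without aIL2RB (aPD1 + aGMCSF against aPD1). This contrast was added after seeing the data. By edgeR's quasi-likelihood test with Benjamini-Hochberg adjustment, the difference of log2 fold changes passed for 10 of the 37 genes, where 8.34% of all genes passed. The effect was lower with aIL2RB for 9 of them. These were Ddit4 (-1.03, adjusted p = 0.00153), Ankrd37 (-0.92, adjusted p = 0.00945), Egln3 (-0.76, adjusted p = 0.0250), the glucose importer Slc2a1 (-0.59, adjusted p = 0.0472), Ero1l (-0.54, adjusted p = 0.0480), the mitophagy receptor Bnip3 (-0.52, adjusted p = 0.0424), Vegfa (-0.47, adjusted p = 0.00214), Plod2 (-0.42, adjusted p = 0.00833) and Pdk1 (-0.41, adjusted p = 0.0176). Pfkfb4 was higher (0.46, adjusted p = 0.0198). The contrast rests on the same 6 aPD1 tumors as the comparisons with aPD1. It called 13 genes with the replicate-number set as a term (10.7% of all genes), 11 with DESeq2 (10.1%), and 6 without aPD1 replicate 1 or 4 (6.43% and 3.61%). Pdk1, Vegfa, Ankrd37, Ddit4 and Plod2 passed under each of these and whichever aPD1 tumor was left out.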

How the results depend on the processing

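The counts of the 37 genes called moved by over 1.5 times as follows, and the causes were not tested. With earlier replicate numbers alone, fewer tumors, 0 were called for aPD1 and 6 for aPD1 + aIL2RB against isotype control, 1 for aPD1 + aGMCSF and 2 for the triple antibodies against aPD1, and 1 for the triple antibodies against aPD1 + aGMCSF. With later numbers alone, 1 was called for aPD1 + aIL2RB against isotype control, 0 for aPD1 + aIL2RB against aPD1 + aGMCSF, and 12 for the triple antibodies against aPD1 + aIL2RB. DESeq2 called 1 for aPD1 + aIL2RB against isotype control. For the triple antibodies against aPD1 + aGMCSF, scaling by library size alone gave 7 and keeping every gene with a total of at least 5 counts gave 5.

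Leaving out 1 tumor at a time gave 2 to 9 calls for aPD1, 0 to 0 for aPD1 + aGMCSF, 0 to 1 for aPD1 + aIL2RB and 2 to 20 for the triple antibodies against isotype control. Against aPD1 it gave 5 to 13, 8 to 13 and 13 to 18 in the same order of groups. It gave 1 to 2 for aPD1 + aIL2RB and 3 to 14 for the triple antibodies against aPD1 + aGMCSF, 0 to 0 for the triple antibodies against aPD1 + aIL2RB, and, leaving out only the aPD1 tumors, 6 to 12 for the aGMCSF effect with minus without aIL2RB. The mean hypoxia response score of aPD1 tumors then ran from -0.69 to -0.20, an alternative chosen after seeing the data.

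With replicate number as a block, although the numbers do not pair the tumors, 5 genes were called for aPD1 + aIL2RB against isotype control, and the other counts stayed within 1.5 times. In that comparison 13.2% of all genes were called with the block and 3.20% without it. The blocked counts were 7 for aPD1 and 14 for the triple antibodies against isotype control, and 7, 12 and 17 for aGMCSF, aIL2RB and both against aPD1. Shares over all genes under the block are not given for these, so the counts alone do not describe the list. Of 42 tumors, 8 correlated best with a tumor of their own number and 36 with one of their own set.

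Over 69 single-gene results past the threshold, 1774 alternatives left 1469 on the same side of it, 305 not past it and 0 reversed. Called under every alternative were 11: Ddit4 in the 3 groups against aPD1, Pfkp and Plod2 with aIL2RB against aPD1, Tpi1 for the triple antibodies against isotype control, Egln3 for the triple antibodies against aPD1 + aGMCSF, and Egln3, Eno1, Kdm3a and Ldha between the replicate-number sets. Those between the sets rest on a split found in these same tumors.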

Other observations

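Some tumors held nearly the whole list on one side of the gene medians over the 42 tumors. In aPD1 + aGMCSF replicate 3, 37 of the 37 genes lay above their median, and in isotype control replicates 1 and 2, 33 and 34. In isotype control replicate 5 and aPD1 replicate 1 only 3 and 4 did, and among triple-antibody tumors the number ran from 1 to 15. Within aPD1 + aIL2RB it ran from 2 (replicate 6) to 33 (replicate 8).

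Pgk1-rs7, the near copy of Pgk1, also fell against aPD1 with aIL2RB (-0.76, adjusted p = 0.0135) and with the triple antibodies (-1.22, adjusted p = 0.000130) by edgeR's test, while Pgk1 itself passed in neither. The copy of Eno1, Eno1b, held 0.0320 to 0.192% of the counts of Eno1.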
